A study of Homo sapiens with 36 samples.

Results

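The genes described here are 38 genes of homologous recombination and of the Fanconi anaemia pathway, chosen by name and read through the probe annotation of the array. Of these, 34 had at least 1 probe assigned to a single gene, and 31 could be tested among 11048 genes in all, because the arrays of 1 or more groups all read a probe above background (detection p under 0.01 in each of the 3). BRCA2, RBBP8, FANCA and FANCD2 were not analysed here, because no probe was assigned to them. RAD52, BRIP1 and FANCM had a probe but were above background in no group of arrays, with BRIP1 detected on 2 single arrays and FANCM on 1.

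Homologous recombination repairs a double-strand break by copying the sister chromatid. Nucleases and helicases resect the ends, replication protein A coats the single strand, mediators such as the BRCA1 complex and the complexes of RAD51C, XRCC2 and XRCC3 prepare the strand for exchange, motor proteins drive strand invasion, and structure-specific nucleases cut the remaining junctions. The Fanconi pathway acts where DNA strands are cross-linked: a core complex with the ligase FANCL and the conjugating enzyme UBE2T attaches ubiquitin to the FANCI-FANCD2 pair, which directs nucleases and recombination to the lesion. Many of these genes are transcribed most in the S and G2 phases of the cell cycle, and inherited loss of several of them predisposes to breast cancer.

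The arrays measured total RNA of MCF-10A, an immortal line of human breast epithelium that forms no tumours, in 12 groups of 3 replicates that the submitters call biological. The groups were wild type cells with no hairpin, cells with a scrambled control hairpin (shControl), and 10 lines in which a stably selected lentiviral short hairpin RNA was aimed at one of 5 genes: ATM in the lines shATM-1 and shATM-3, ATR in the lines shATR-3 and shATR-4, CHK1 in shCHK1-3 with shCHK1-4, CHK2 in shCHK2-1 with shCHK2-2, and 53BP1 in sh53BP1-1 with sh53BP1-2. ATM and ATR are kinases that respond to DNA damage, CHK1 and CHK2 are the kinases they activate, and 53BP1 is a chromatin protein that restrains end resection. All cells were plated at 200000 per 10 cm dish and collected after 48 hours in the same medium, and none of the labels names a damaging agent. Each hairpin is represented by 1 selected line, and the labels do not say that its replicates came from separate selections.

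Mean raw signal ran from 460.0 to 676.9 intensity units per array, between 33.5% and 38.3% of probes were above background, and replicate arrays correlated at 0.984 or more. The targeted transcript was lower in both lines against both references for ATM (log2 difference -0.53 and -0.67 from wild type), CHEK1 (-0.25 and -0.27 from shControl, with larger differences from wild type) and TP53BP1 (-2.27 and -1.96 from wild type). CHEK2 fell by 1.17 in shCHK2-1, while the value in shCHK2-2 was -0.27 (adjusted p = 0.216). A second CHEK2 probe read a mean log2 signal of 7.63 in wild type, 7.31 in shControl, 5.53 in shCHK2-1 and 6.71 in shCHK2-2. No ATR probe was above background on all 3 arrays of a group, and 1 of them was on 1 array each of shCHK1-3 and shCHK2-2. The 9p21 genes MTAP, CDKN2A and CDKN2B, which MCF-10A is known to have lost, were above background on every array of the 8 lines with hairpins to ATM, ATR, CHK1 or CHK2 (the kinase lines), and on no array of the wild type, shControl and 53BP1 groups, so these 8 lines go against their cell line label. All 9 basal epithelial markers with a probe were detected in every group. Luminal markers summed to between 1803 and 5356 units of corrected signal in the kinase lines, with 5 to 7 of 10 detected, against 16807 to 17522 in wild type. Fibroblast markers were detected for 1 to 3 of 10 genes, and leukocyte and endothelial markers for 1 to 3 of 9. The kinase lines are given apart from the 53BP1 lines throughout, and in them the effect of a hairpin and this difference from the reference cells cannot be told apart.

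Stretches upstream of the start site are shown for PSMC3IP, RAD51AP1, EXO1, FANCB and FANCE, chosen from the 9 members described below that were lower in shControl than in wild type and higher than shControl in all 10 hairpin lines, some with and some without a motif, and for BARD1, which was below wild type in all of the other 11 groups. The sequences are the 160 bases before the RefSeq start in GRCh38.p14, written in the direction of transcription. They lie at chr17:42577730-42577889 for PSMC3IP (minus strand), chr12:4538730-4538889 for RAD51AP1 (plus), chr1:241848571-241848730 for EXO1 (plus), chrX:14873070-14873229 for FANCB (minus), chr6:35452178-35452337 for FANCE (plus) and chr2:214809684-214809843 for BARD1 (minus). For PSMC3IP and EXO1 the further downstream of 2 listed starts is shown. Capitals mark matches to the NF-Y box CCAAT (read on either strand) or to the E2F pattern TTTNNCGC, both common in promoters of cell cycle genes.
PSMC3IP: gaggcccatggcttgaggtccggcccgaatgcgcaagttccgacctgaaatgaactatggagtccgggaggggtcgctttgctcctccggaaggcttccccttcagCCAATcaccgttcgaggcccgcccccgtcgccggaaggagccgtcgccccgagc
RAD51AP1: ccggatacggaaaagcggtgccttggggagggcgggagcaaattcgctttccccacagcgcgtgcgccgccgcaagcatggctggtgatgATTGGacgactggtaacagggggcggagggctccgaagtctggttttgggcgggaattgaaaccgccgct
EXO1: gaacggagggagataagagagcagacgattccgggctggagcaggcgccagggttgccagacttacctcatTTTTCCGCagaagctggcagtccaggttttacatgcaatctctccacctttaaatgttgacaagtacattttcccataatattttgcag
FANCB: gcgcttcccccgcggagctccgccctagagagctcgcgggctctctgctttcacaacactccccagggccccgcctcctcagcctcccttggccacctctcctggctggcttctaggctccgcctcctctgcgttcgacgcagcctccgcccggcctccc
FANCE: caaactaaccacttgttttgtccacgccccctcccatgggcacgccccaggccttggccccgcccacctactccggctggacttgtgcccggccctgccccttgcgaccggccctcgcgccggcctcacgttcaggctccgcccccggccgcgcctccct
BARD1: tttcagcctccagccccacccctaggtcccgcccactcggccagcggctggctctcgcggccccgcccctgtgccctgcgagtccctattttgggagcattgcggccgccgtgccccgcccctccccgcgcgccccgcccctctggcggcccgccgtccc

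PSMC3IP and RAD51AP1 hold 1 CCAAT box each in this stretch, at 54 and 70 bases before the start, EXO1 holds 1 E2F pattern at 89 bases, and FANCB, FANCE and BARD1 hold neither. The window before the other EXO1 start holds no motif. Of the 9 members, RAD54L also holds CCAAT before both of its starts and BRCA1 before 1 of 2, whereas the windows of RAD51C and FANCG, like those of FANCB and FANCE, hold none of the motifs searched. Both strands of the 250 bases before each start were searched for these motifs and for the cell cycle homology region TTTGAA. RefSeq windows were found for 33 of the 38 members. CCAAT was present in 38.9% of the 36 windows of tested members and in 32.0% of all 35116 windows, TTTNNCGC in 5.56% and 5.92%, and TTTGAA in 5.56% and 13.3%. A match describes the letters and is not evidence of a bound site, and the lack of one says only that these letters are not in the window.

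**Figure D1:**
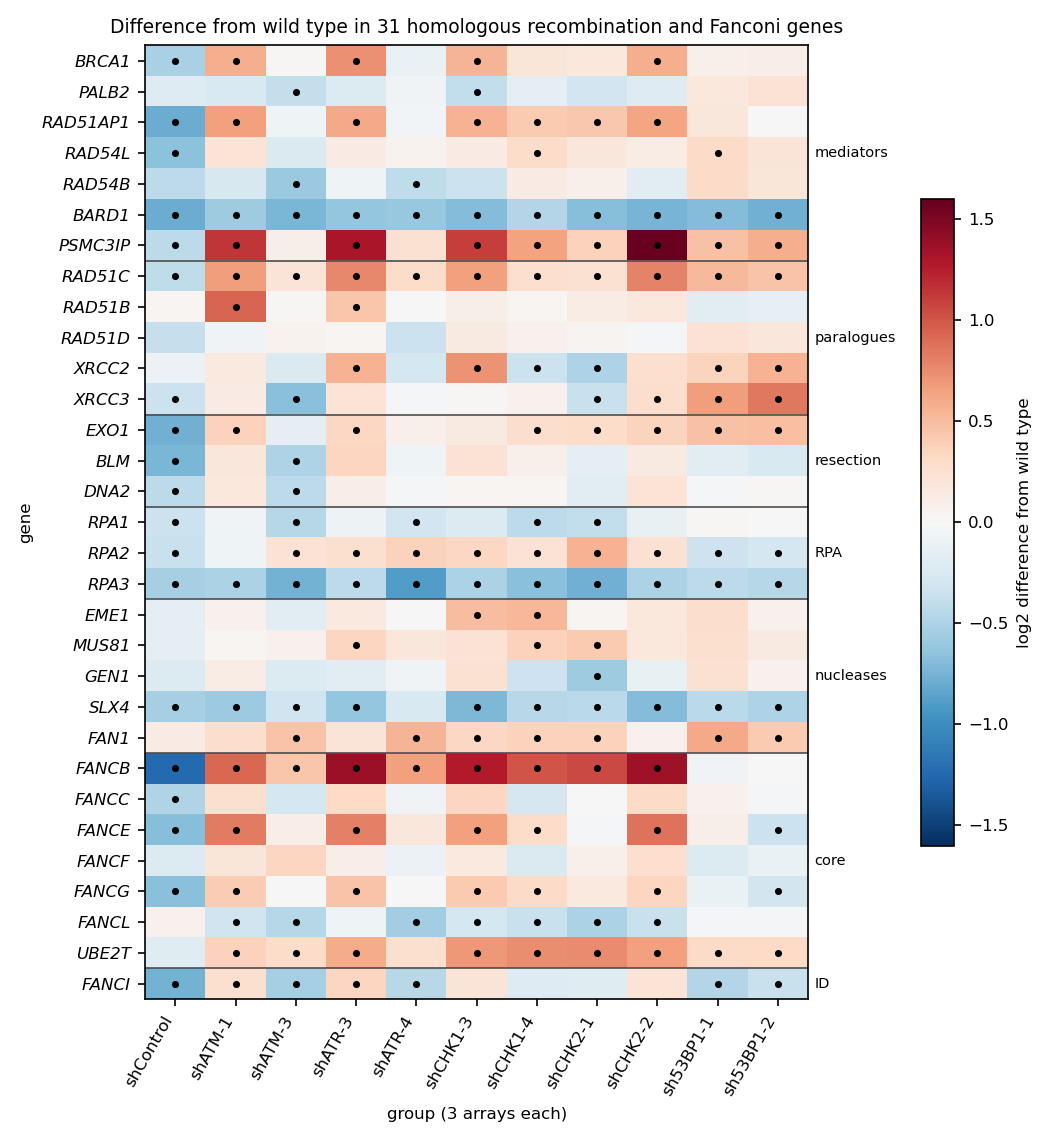
Log2 difference from wild type of each of the 31 tested members (rows, by role) in the 11 other groups (columns), with black dots where the adjusted p was under 0.05. BARD1 and RPA3 are lower in all 11 groups, shControl has 19 members lower and none higher, and the kinase lines mix both directions. All columns use the same wild type arrays, and the share of all genes lower in all 11 groups was not counted.

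The scrambled control hairpin line was not equivalent to wild type for these genes: 19 of 31 members were lower in shControl and none was higher, at a background of 16.0% of all genes lower and 14.5% higher (limma, Benjamini-Hochberg adjusted p under 0.05). The median member difference was -0.41 on the log2 scale, against -0.01 over all genes, and 28 of the 31 values were below 0. The genes that fell were the mediators BRCA1, BARD1, RAD51AP1, RAD54L and PSMC3IP, the further mediators RAD51C and XRCC3, all 3 tested resection genes, all 3 subunits of replication protein A, the nuclease scaffold SLX4, 4 members of the core complex and FANCI. The nucleases MUS81, EME1, GEN1 and FAN1 were not called, nor were FANCL and UBE2T, which attach the ubiquitin. In RNA from whole cultures, fewer cells expressing a gene and less of its RNA per cell cannot be told apart. Lists for DNA replication and mitosis were also lower in shControl, with 33 of 39 and 31 of 32 tested genes called lower and medians of -0.60 and -0.63. Cell type markers differed as well: the summed corrected signal of basal markers was 19469 to 20647 in shControl and 25183 to 26728 in wild type (5 of 9 tested genes lower, 1 higher), and that of luminal markers was 11558 to 12540 and 16807 to 17522 (5 of 9 lower, 2 higher). Fibroblast markers summed to 1180 to 1432 in shControl and 519 to 598 in wild type (2 of 4 higher, none lower). The part of these lists in the members' difference was not tested.

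FANCB, a core complex subunit encoded on the X chromosome, showed the widest gap. Its log2 signal was 6.48, 6.40 and 6.68 in the wild type replicates and 5.29, 5.56 and 4.97 in the shControl replicates. All shControl arrays were below all wild type arrays, and 1 of them was not above background. The difference was -1.25 ± 0.14 (SE, 2.38-fold lower, adjusted p = 5.1e-08, n = 3 and 3). A second FANCB probe gave -0.59 (adjusted p = 0.00408), and without background correction the first probe gave -0.47, so the direction held while the size depended on the probe and the scale.

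BARD1, the obligate partner of BRCA1 in a ubiquitin ligase, read 8.61, 8.46 and 8.56 in wild type and 7.58, 7.90 and 7.76 in shControl, a difference of -0.80 ± 0.09 (adjusted p = 4.62e-08). BRCA1 itself read 8.62, 8.59 and 8.67 against 8.12, 8.06 and 8.13, a smaller difference of -0.52 ± 0.10 (adjusted p = 0.000189). Neither gene had overlapping groups. RAD51AP1, which promotes the joining of homologous strands, read 9.30, 9.60 and 9.18 in wild type and 8.64, 8.53 and 8.53 in shControl (-0.79 ± 0.09, adjusted p = 6.26e-08), again with no overlap.

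Among the resection genes, the exonuclease EXO1 fell by 0.77 ± 0.11 (adjusted p = 2.68e-06) and the helicase BLM by 0.73 ± 0.19 (adjusted p = 0.00325, with -0.31 when the background was not corrected). FANCI, the monoubiquitinated partner of FANCD2, read 9.30, 9.65 and 9.63 in wild type and 8.84, 8.87 and 8.61 in shControl, so the lowest wild type array stood above the highest shControl array. Its difference was -0.75 ± 0.11 (adjusted p = 4.29e-06). FANCE and FANCG, which link the core complex to the FANCI-FANCD2 pair and hold the complex together, fell by 0.68 ± 0.11 and 0.66 ± 0.10 (adjusted p = 2.03e-05 and 4.86e-06). RPA1, RPA2 and RPA3, the subunits of replication protein A, fell by 0.34, 0.35 and 0.53.

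The least secure of the 19 calls were those of XRCC3, DNA2, RPA1, PSMC3IP and FANCC. XRCC3 lost its call without any 1 of the wild type arrays (-0.35, -0.31 and -0.36 without replicates 1, 2 and 3) and without shControl replicate 2 (-0.18, adjusted p = 0.309). DNA2 lost it without any 1 of the wild type arrays (-0.43, -0.38 and -0.46) and without shControl replicate 1 or 2 (-0.31 and -0.43). RPA1 lost it without wild type replicate 2 (-0.28) or shControl replicate 3 (-0.30), PSMC3IP without wild type replicate 1 or 3 (-0.36 and -0.40) or shControl replicate 1 or 2 (-0.34 and -0.39), and FANCC without wild type replicate 1 or 2 (-0.51 and -0.40) or shControl replicate 1 or 3 (-0.44 and -0.42). FANCC was above background on only 1 of 3 shControl arrays.

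Of the 12 members that were not called, 3 had values above 0 (the nuclease FAN1 at 0.13, the ligase FANCL at 0.06 and RAD51B at 0.03). RAD54B, a motor protein, was at -0.42 with an adjusted p of 0.0537, and was called without wild type replicate 1 (-0.51) or shControl replicate 2 (-0.56). UBE2T was at -0.20 and was called without shControl replicate 3 (-0.32). XRCC2 was at -0.09.

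**Figure D2:**
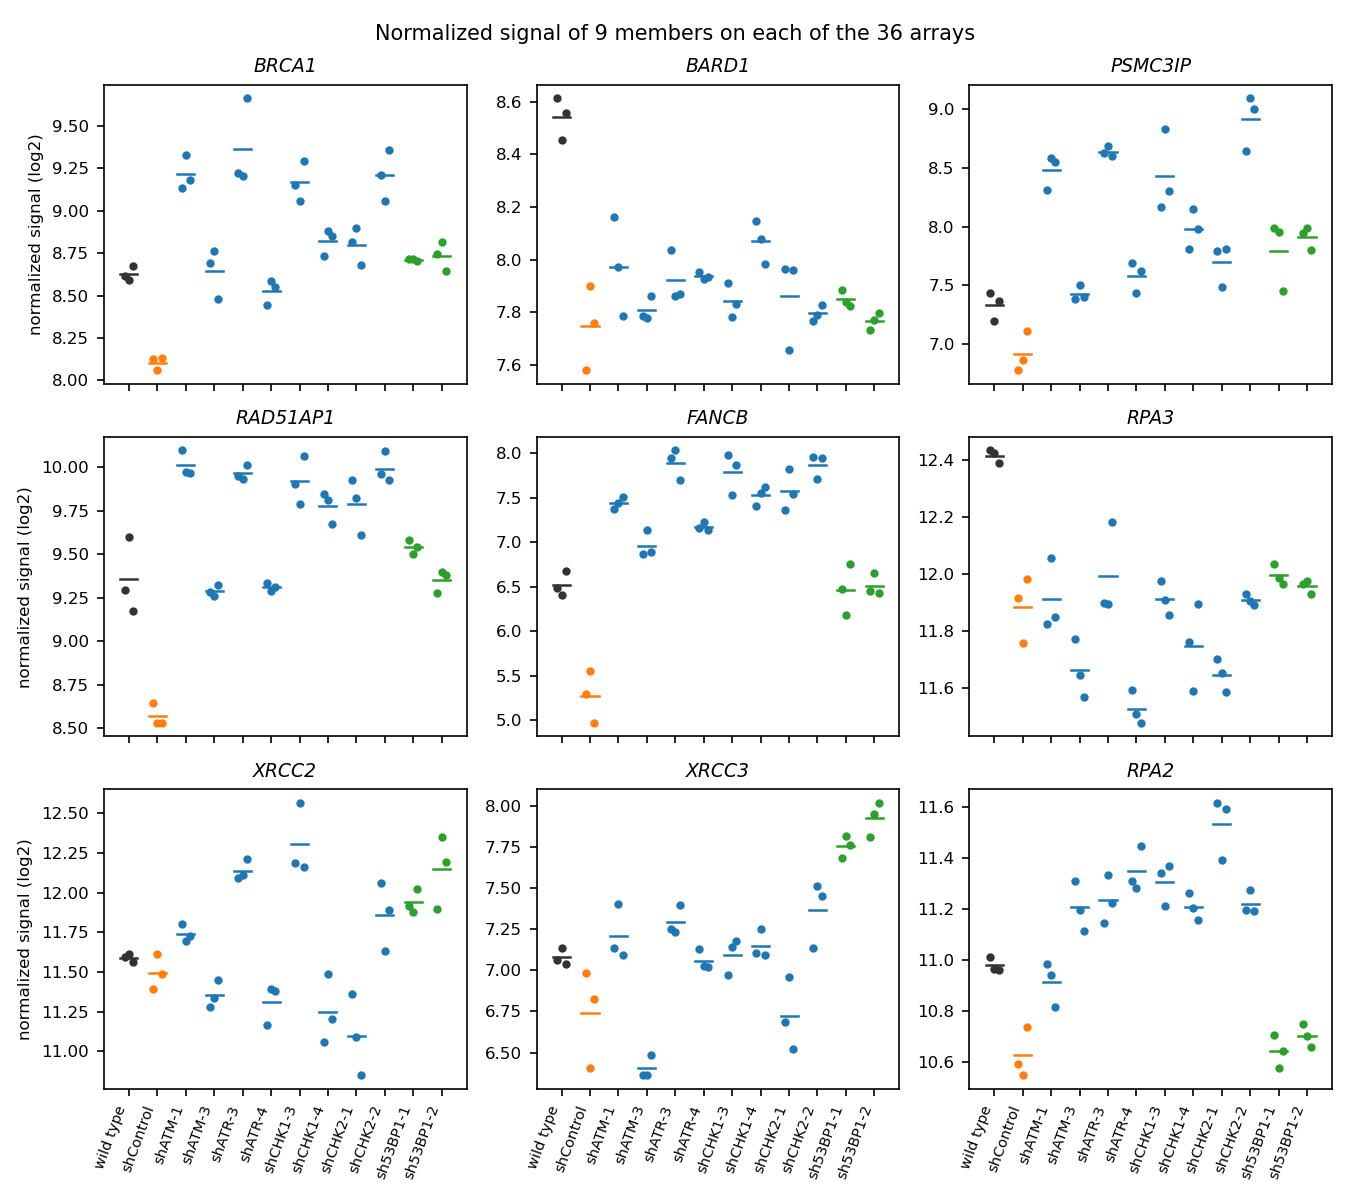
Log2 signal of 9 members on each of the 36 arrays, with a point for each array and a short line at each group's mean (black wild type, orange shControl, blue kinase lines, green 53BP1 lines). BARD1 and RPA3 stand highest in wild type, FANCB is lowest in shControl and highest in the kinase lines, and XRCC3 is highest in the 53BP1 lines.

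The 53BP1 lines keep the 9p21 pattern of wild type and shControl, and their hairpins lowered TP53BP1 the most of all targets that could be read. Against wild type, 7 members were higher in both lines and 5 were lower in both, at a background of 17.8% of all genes higher and 21.3% lower. Those higher were the mediators RAD51C, XRCC2 and XRCC3, the exonuclease EXO1, the strand exchange cofactor PSMC3IP, the nuclease FAN1 and the conjugating enzyme UBE2T. Those lower were BARD1, RPA2, RPA3, SLX4 and FANCI. For the mean of both lines, 8 members were higher and 5 lower (25% and 29.7% of all genes), RAD54L being the addition, with a median of 0.09 against -0.02 over all genes. The call of RAD54L (0.26, adjusted p = 0.018) was lost without wild type replicate 3 (0.21) or sh53BP1-2 replicate 1 (0.21).

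XRCC3, which pairs with RAD51C in a mediator complex, gave the widest rise. Its log2 signal was 7.06, 7.14 and 7.04 in wild type, 7.68, 7.82 and 7.76 in sh53BP1-1 and 7.81, 7.95 and 8.02 in sh53BP1-2. All 6 arrays of the 53BP1 lines were above all wild type arrays, and the mean difference was 0.76 ± 0.11 (1.69-fold, adjusted p = 4.8e-07), or 0.49 without background correction. The arrays of the kinase lines ran from 6.36 to 7.51 with a median of 7.12, so that none reached the 53BP1 lines.

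RAD51C read 9.28, 9.31 and 9.38 in wild type, 9.96, 9.79 and 9.77 in sh53BP1-1 and 9.78, 9.79 and 9.76 in sh53BP1-2, a difference of 0.48 ± 0.07 (adjusted p = 2.78e-06). XRCC2, a subunit of another such complex, rose by 0.46 ± 0.11 (adjusted p = 0.00115) from 11.59, 11.61 and 11.56 to between 11.88 and 12.35. A second XRCC2 probe gave 0.11 (adjusted p = 0.614). For both genes the 53BP1 arrays lay wholly above the wild type arrays. The related RAD51D and RAD51B were not called: RAD51D was at 0.21, and RAD51B was not above background on any wild type, shControl or 53BP1 array.

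EXO1 was 0.47 ± 0.10 higher (adjusted p = 0.000153), PSMC3IP 0.52 ± 0.13 (adjusted p = 0.00109) and FAN1 0.51 ± 0.12 (adjusted p = 0.00064), each with no overlap between the groups. UBE2T was 0.31 ± 0.10 higher (adjusted p = 0.00816), a call lost without wild type replicate 3 (0.26, adjusted p = 0.057). PSMC3IP was called with 2 of its 3 detected probes: the remaining probe gave -0.31 (adjusted p = 0.13), and the mean over probes gave 0.28 (adjusted p = 0.0531). On the opposite side, BARD1 ran from 7.73 to 7.89 on the 6 arrays of the 53BP1 lines, a difference of -0.73 ± 0.08 from wild type (adjusted p = 5.76e-09). RPA3, the smallest subunit of replication protein A, read 12.43, 12.43 and 12.39 in wild type and between 11.93 and 12.03 in the 53BP1 lines (-0.44 ± 0.08, adjusted p = 1.13e-05). RPA2 differed by -0.31, SLX4 by -0.46 and FANCI by -0.42.

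Against shControl, 21 of 31 members were higher in both 53BP1 lines and none was lower, which is 67.7% of members at a background of 24.0% of all genes higher and 25% lower. The median member difference was 0.46, against -0.00 over all genes. The 4 members below wild type but not above shControl in both lines were BARD1, RPA2, RPA3 and SLX4. For FANCB, the 53BP1 values of 6.18 to 6.75 differed from wild type by -0.03 (adjusted p = 0.852) and from shControl by 1.22 (adjusted p = 1.18e-09). Both comparisons use the same 53BP1 arrays. The replication and mitosis lists had 33 of 39 and 30 of 32 genes called higher for the mean of both lines against shControl, and 12 of 39 and 12 of 32 called higher against wild type. Of the luminal markers, 6 of 9 were lower in both 53BP1 lines than in wild type and 1 was higher, and of the fibroblast markers, 3 of 4 were lower than in shControl. Of 9 tested basal markers, 4 were higher and 1 lower in both lines than in wild type. Basal markers summed to 31230 to 33424 in sh53BP1-1 and 36367 to 38155 in sh53BP1-2, above both wild type and shControl. The part of these lists was not tested.

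In the kinase lines, 4 members were called with one sign in all 8 lines against wild type: FANCB and RAD51C were higher, and BARD1 and RPA3 were lower. The background was 14.5% of all genes higher and 17.6% lower in all 8 lines. Against shControl, 11 members were higher in all 8 lines and none was lower, which is 35.5% of members at a background of 16.9% of all genes higher and 19.1% lower. Those 11 were BRCA1, RAD51C, RAD51AP1, RAD54L, EXO1, RPA2, PSMC3IP, FANCB, FANCE, FANCG and UBE2T. For the mean of the 8 lines, 12 members were higher and 5 lower than wild type (34.6% and 34.3% of all genes), with a median of 0.10 against 0.01 over all genes. Against shControl, 20 were higher and 1 was lower (37.1% and 34.5%), with a median of 0.38 against 0.03. Because these lines also express the 9p21 genes and less of the luminal markers than the wild type and shControl cells, differences from either reference cannot be assigned to the hairpins.

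Line by line against wild type, the balance of members differed. In shATM-1, 11 were higher and 4 lower (31.5% and 32.4% of all genes), whereas in shATM-3 5 were higher and 11 lower (28.2% and 27.9%). In shATR-3, 14 were higher and 3 lower (31.2% and 33.6%), and in shATR-4, 4 and 6 (29.1% and 27.8%). The CHK1 lines had 12 higher and 5 lower in shCHK1-3 (31% and 33.9%) and 13 and 6 in shCHK1-4 (30.3% and 29.4%). The CHK2 lines had 9 and 8 in shCHK2-1 (30.2% and 30.2%) and 11 and 4 in shCHK2-2 (31.8% and 34.5%). The 53BP1 lines had 8 and 5 in sh53BP1-1 (23.8% and 27.9%) and 7 and 7 in sh53BP1-2 (21.5% and 25.3%). The members counted higher in shATM-1 and shATR-3 include RAD51B, which was tested only because shATM-1 detected it. Among the 10 lines, shATM-3 had the most members below wild type.

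Against shControl every line had more members higher than lower. The higher counts below include RAD51B in shATM-1 and FANCF in shATM-3, each tested only because that line detected it, and FANCF in shCHK2-2. Those higher numbered 19 for shATM-1 but 14 for shATM-3 (33.6% and 30.5% of all genes), 20 in shATR-3 and 18 in shATR-4 (33.4% and 31.6%), 21 in shCHK1-3 and 20 in shCHK1-4 (32.9% and 32.6%), 17 in shCHK2-1 and 19 in shCHK2-2 (31.9% and 33.3%), and 23 in sh53BP1-1 and 21 in sh53BP1-2 (29.1% and 27.8%). Those lower numbered 1 for shATM-1, 3 for shATM-3 (33.1% and 27.8%), 0 and 2 in shATR-3 and shATR-4 (34.1% and 28.5%), 1 in each CHK1 line (34.3% and 29.8%), 3 and 1 in shCHK2-1 and shCHK2-2 (30.4% and 35.1%), and 0 in each 53BP1 line (30.5% and 28.4%). BRCA1, RAD51C, RAD51AP1, RAD54L, EXO1, PSMC3IP, FANCB, FANCE and FANCG were lower in shControl than in wild type and higher than shControl in all 10 lines, both read from the same 3 shControl arrays. The share of all genes meeting both conditions was not counted, so this set is not shown to be particular to the members.

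**Figure D3:**
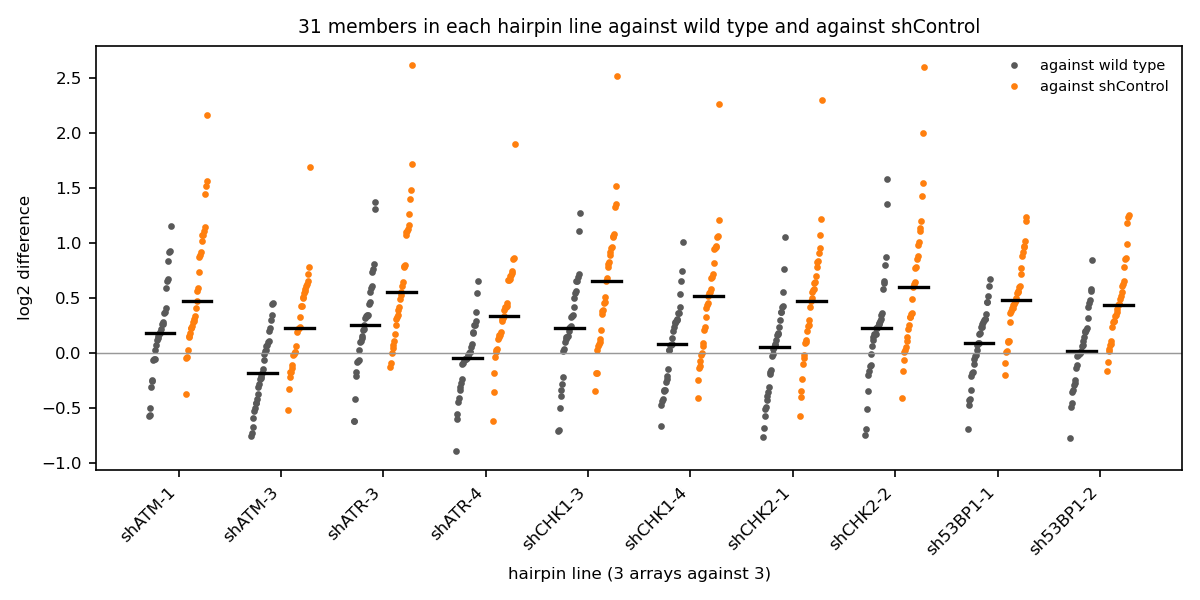
Log2 difference of the 31 members in each of the 10 hairpin lines, with 1 point per member, grey against wild type and orange against shControl, and black bars at the medians. In every line the median against shControl lies above the median against wild type: medians run from -0.18 (shATM-3) to 0.26 (shATR-3) against wild type and from 0.23 (shATM-3) to 0.65 (shCHK1-3) against shControl, and the same shControl and wild type arrays enter all lines.

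FANCB ran from 6.87 to 8.03 on the 24 kinase arrays, with a median of 7.54, against 6.40 to 6.68 in wild type. No kinase array overlapped wild type. The mean difference was 1.01 ± 0.11 from wild type (2.01-fold, adjusted p = 1.75e-09) and 2.26 ± 0.11 from shControl (4.78-fold, adjusted p = 1.16e-17). By line, it was smallest in shATM-3 (0.44 from wild type) and largest in shATR-3 (1.37). The second FANCB probe gave 0.61 from wild type (adjusted p = 3.24e-05), and without background correction the first gave 0.58. In shControl FANCB was near background, with a mean log2 signal of 5.27 and 2 of 3 arrays detected. The size of the difference from shControl is limited by this.

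RAD51C ran from 9.34 to 10.15 with a median of 9.77, against 9.28 to 9.38 in wild type. The ranges overlapped slightly, and the mean difference was 0.49 ± 0.06 (adjusted p = 9.73e-08). PSMC3IP, known for its role with MND1 in strand exchange, ran from 7.38 to 9.09 with a median of 8.16, against 7.20 to 7.43 in wild type (0.81 ± 0.11, adjusted p = 1.91e-07). It was called in 6 of 8 lines, and in shATM-3 it was at 0.10 (adjusted p = 0.601). UBE2T was higher in 7 of 8 lines (mean 0.55 ± 0.08, adjusted p = 1.55e-06), with kinase arrays from 10.53 to 11.38 all above the wild type arrays at 10.27 to 10.44.

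On the lower side, BARD1 ran from 7.66 to 8.16 on the kinase arrays, wholly below the wild type arrays at 8.46 to 8.61 (-0.64 ± 0.07, adjusted p = 1.73e-09). By line the difference lay between -0.75 in shCHK2-2 and -0.47 in shCHK1-4. Its partner BRCA1 went the other way, at 0.34 ± 0.08 for the mean of the 8 lines (adjusted p = 0.000263) and called higher in 4 of them. RPA3 ran from 11.48 to 12.18 against 12.39 to 12.43 (-0.63 ± 0.06, adjusted p = 6.98e-10), and RPA2, another subunit of the same trimer, was higher in 7 of 8 lines (0.27 ± 0.06, adjusted p = 0.000216). RPA1 was at -0.26 ± 0.08 (adjusted p = 0.00409), a call lost without wild type replicate 2 (-0.19, adjusted p = 0.0673).

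FANCL, the ligase of the core complex, was the member called lower for the mean of the 8 kinase lines against shControl, and it was lower against wild type as well. It was lower in 7 of 8 kinase lines than in wild type and in 7 of 8 than in shControl, with mean differences of -0.36 ± 0.09 (adjusted p = 0.000821) and -0.42 ± 0.09 (adjusted p = 0.000125). Its log2 signal was 8.57, 8.83 and 8.39 in wild type and 8.58, 8.72 and 8.68 in shControl, and ran from 7.92 to 8.64 on the kinase arrays, so that the ranges overlapped. The exception was shATR-3, at -0.06 from wild type. In the 53BP1 lines it was at -0.02. SLX4, the scaffold for MUS81-EME1 and other nucleases, was lower than wild type in 10 of the 11 other groups, with shATR-4 at -0.24 and not called. Those 10 calls share the same wild type arrays, and the share of all genes called as often was not counted. The mean over the kinase lines was -0.50 ± 0.10 (adjusted p = 5.83e-05).

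Counting all 11 groups against wild type, 29 of the 31 members were called in at least 1 group, as were 94.3% of all genes, and RAD51D and FANCF were called in none. FANCF was above background on 8 of the 36 arrays and on all 3 of shATM-3 alone, which let it pass the filter. RAD51B was above background on 5 arrays and on all 3 of shATM-1 alone, through which it passed the filter. Its level there, at least 1.45-fold higher than in wild type, is therefore a description with no test, and 2 other RAD51B probes were not detected in any group. GEN1, a junction resolvase, was above background in 5 groups, and was not in shCHK2-1, where wild type stood at least 1.21-fold higher (adjusted p = 0.0155). Of the other junction nucleases, MUS81 was called higher in 3 kinase lines and EME1 in 2. PALB2, which bridges BRCA1 and BRCA2, was called lower in 2 kinase lines and in no other group against wild type.

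The 2 hairpins of one kinase target gave different values for many of these genes. In shATM-1, 18 members were higher than in shATM-3 and 1, RPA2, was lower, at a background of 19.2% of all genes higher and 24.4% lower. One of the 18 was RAD51B, which was tested only because shATM-1 detected it. In shATR-3, 12 were higher and 2 lower than in shATR-4 (16.8% and 24.1% of all genes). In shCHK1-3, 8 were higher and 1 lower than in shCHK1-4 (12.1% and 20.3%), and in shCHK2-1, 1 was higher and 10 were lower than in shCHK2-2 (26.2% and 19.2%). Only FANCE differed between the 53BP1 hairpins (0.43, adjusted p = 0.0138), where 2.36% of all genes were higher and 5.03% lower in sh53BP1-1. That call was lost without sh53BP1-1 replicate 1 or 2 (0.37 each) or sh53BP1-2 replicate 3 (0.39).

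BRCA1, RAD51C, XRCC2, PSMC3IP, FANCE and FANCI differed between the hairpins of all 4 kinases, which is 19.4% of members at a background of 15.9% of all genes. For those 6, the higher lines were shATM-1, shATR-3, shCHK1-3 and shCHK2-2. This arrangement was not particular to them: of the 1761 genes called in all 4 pairs, 1714 split the lines in the same way, 660 with those lines higher and 1054 with them lower. Of the 39 tested genes of the replication list, 23 were higher and 1 lower in shATM-1 than in shATM-3, 23 and 3 in shATR-3 than in shATR-4, 8 and 2 in shCHK1-3 than in shCHK1-4, and 4 and 15 in shCHK2-1 than in shCHK2-2, and 6 were called in all 4 pairs. Basal epithelial markers divided the lines too: they summed to between 25989 and 34530 in shATM-1, shATR-3, shCHK1-3 and shCHK2-2 and to between 41945 and 48804 in the other 4 kinase lines. Of 9 tested basal genes, 7, 6 and 6 were lower in the first line of the ATM, ATR and CHK1 pairs, and 7 were higher in shCHK2-1 than in shCHK2-2. The part of these lists was not tested. The member median of the log2 difference between hairpins was 0.40 for ATM, 0.34 for ATR, 0.10 for CHK1 and -0.19 for CHK2, against -0.03, -0.04, -0.05 and 0.04 over all genes.

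PSMC3IP spread the most among them. It read 8.31, 8.58 and 8.55 in shATM-1 and 7.38, 7.50 and 7.41 in shATM-3 (1.05 ± 0.15, adjusted p = 1.39e-06), with no overlap. It read 8.63, 8.68 and 8.60 in shATR-3 and 7.69, 7.44 and 7.62 in shATR-4 (1.06 ± 0.15, adjusted p = 1.24e-06). In the CHK2 lines it read 7.79, 7.49 and 7.81 in shCHK2-1 and between 8.65 and 9.09 in shCHK2-2 (-1.21 ± 0.15, adjusted p = 1.05e-07). Neither pair overlapped, and the lines of a pair differed by more than shATM-3 differed from wild type. In the CHK1 lines the difference was 0.45 (adjusted p = 0.0196) and was lost without shCHK1-3 replicate 2 (0.26) or shCHK1-4 replicate 1 (0.37). The 2 other detected probes of PSMC3IP gave 0.87 and 0.40 for ATM, 1.26 and 0.93 for ATR and -0.86 and -1.02 for CHK2, all called, and 0.25 and 0.39 for CHK1, neither called.

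XRCC2 was split widest in the CHK1 lines, at 12.19, 12.57 and 12.17 in shCHK1-3 and 11.06, 11.49 and 11.21 in shCHK1-4 (1.06 ± 0.13, adjusted p = 2.9e-07). Against wild type, one line was called higher (0.72) and the other lower (-0.34). In the CHK2 lines shCHK2-1 was at -0.49 (called) and shCHK2-2 at 0.27 (not called). FANCI likewise was above wild type in shATM-1 (0.26) and shATR-3 (0.35) and below it in shATM-3 (-0.53) and shATR-4 (-0.45), each called.

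RPA2 ran opposite to the other called members in 2 of the pairs, with shATM-1 below shATM-3 (-0.29 ± 0.08, adjusted p = 0.00327) and shCHK2-1 above shCHK2-2 (0.31 ± 0.08, adjusted p = 0.00175). Some members that were not called, SLX4 and FAN1 among them, had the same signs as RPA2 in both pairs. RPA1 was called between hairpins through 1 of its 3 probes only: for ATM, the mean over probes gave 0.11 (adjusted p = 0.383). Between the CHK1 hairpins, the calls for BRCA1 (0.35, 0.28 without shCHK1-3 replicate 3 and 0.30 without shCHK1-4 replicate 1) and FANCE (0.36, between 0.29 and 0.32 without shCHK1-3 replicate 1 or 3 or shCHK1-4 replicate 3) rested on single arrays. XRCC2 between the ATM hairpins (0.39) was lost without replicate 1 of shATM-1 (0.36) or of shATM-3 (0.35).

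**Figure D4:**
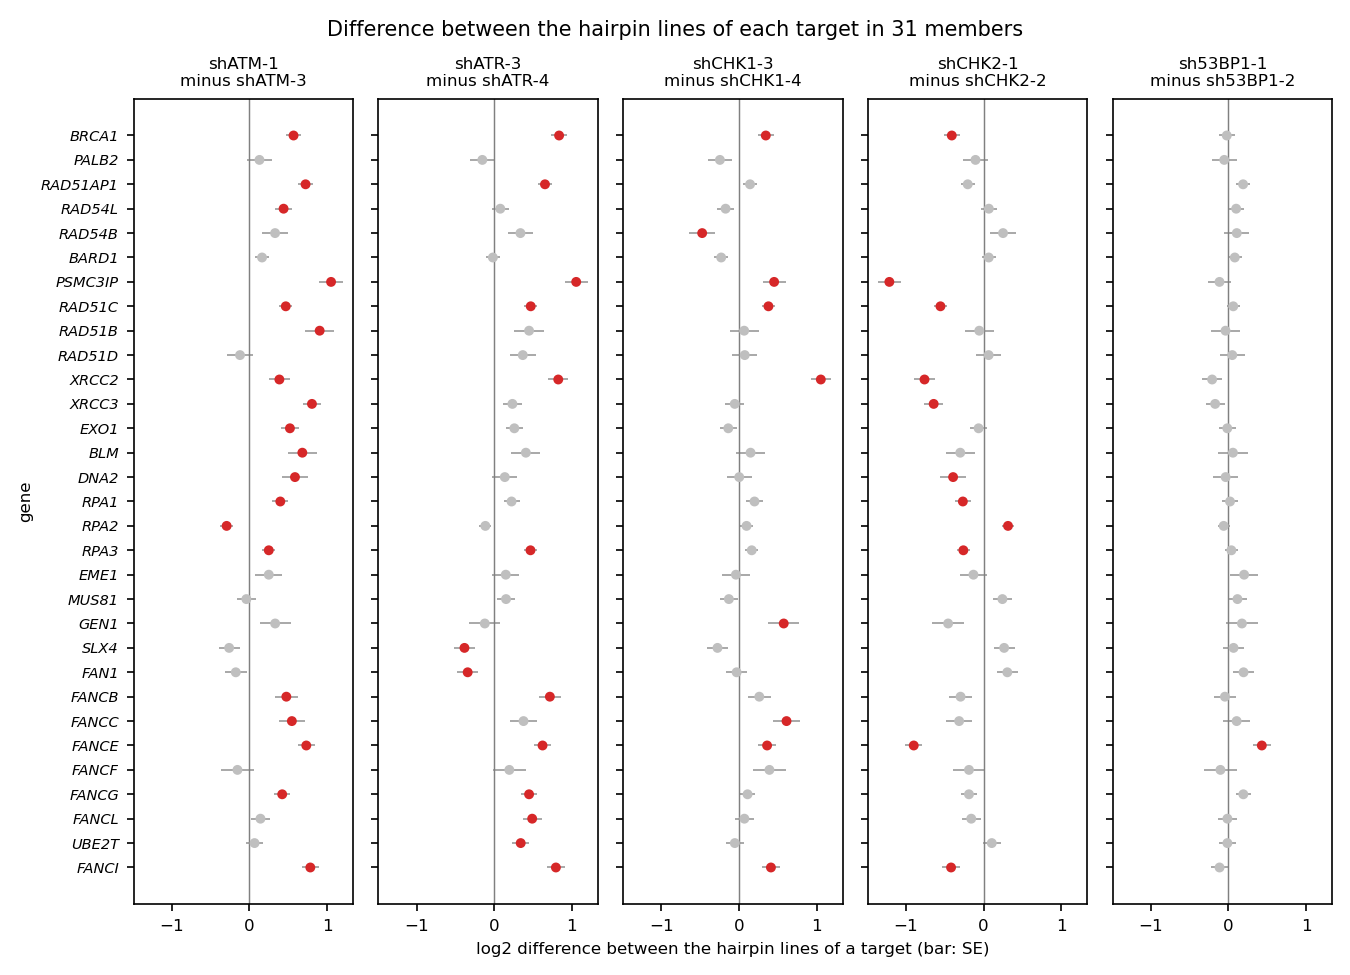
Log2 difference between the lines of each target for the 31 members (1 row per member), with red marking an adjusted p under 0.05. The ATM, ATR and CHK1 pairs lie mostly to one side, the CHK2 pair to the other, and only FANCE is called for 53BP1.

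Each target's lines were also set against the other 6 kinase lines, which share the 9p21 pattern. For ATM, 8 members were lower, at a background of 6.65% of all genes. The 1 member called higher (12% of all genes) was RAD51B, which was tested only because shATM-1 detected it, and with detection on all 36 arrays or on the deposited scale none was higher. FANCB differed by -0.44 ± 0.08 (adjusted p = 0.000383), XRCC3 by -0.31 ± 0.07 (adjusted p = 0.00228), UBE2T by -0.28 ± 0.07 (adjusted p = 0.00239) and RPA2 by -0.25 ± 0.05 (adjusted p = 0.000229). PSMC3IP, RAD54B, EME1 and MUS81 were also called but lost the call without single arrays. The ranges overlapped for every gene, and the hairpins of ATM differed from each other in FANCB (0.48) and XRCC3 (0.81) by more than the target did from the rest. The same held for RPA2, with group means of 10.91 in shATM-1 and 11.20 in shATM-3. The mitosis list had 21 of 32 genes lower in the same comparison.

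For ATR no member was called by limma at a background of 2.64% of all genes higher and 1.62% lower, 4 had an unadjusted p under 0.05, and the smallest adjusted p was 0.1. For CHK1, EME1, the partner of the nuclease MUS81, was 0.47 ± 0.10 higher (adjusted p = 0.00278), with group means of 6.41 and 6.45 in the CHK1 lines and 5.74 to 6.09 in the others, at a background of 2.30% of all genes higher and 4.85% lower. Without background correction EME1 was at 0.20. UBE2T was also called (0.23, adjusted p = 0.0267), a call lost without shCHK1-3 replicate 2 (0.15) or shCHK1-4 replicate 1 (0.23) or 3 (0.20). For CHK2, 4 members were called higher and none lower (background 3.61% and 6.92%): RPA2 at 0.18 ± 0.05 (adjusted p = 0.0116) kept its call without any single array. Its group means were 11.53 in shCHK2-1 and 11.22 in shCHK2-2, against 10.91 to 11.35 in the other kinase lines. The CHK2 hairpins thus differed from each other in RPA2 by more than the target did from the rest. FANCB (0.26), UBE2T (0.22) and RAD51AP1 (0.18) each lost it without at least 1 array.

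Other genes of the pathway were read from a list of 46 partners, of which 40 were tested. In shControl 13 were lower and 3 higher than wild type (16.0% and 14.5% of all genes), with a median of -0.22. HROB, which recruits the MCM8-MCM9 helicase, fell by 1.02 ± 0.11, and POLQ, the polymerase of end joining at microhomology, by 0.91 ± 0.11. Those higher in shControl were WDR48 (0.53), FIGNL1 (0.47) and ERCC1 (0.26). For the mean of the 53BP1 lines against wild type 7 were higher and 10 lower (25% and 29.7% of all genes). FIGNL1, an ATPase with a role in recombination, was 1.51 ± 0.11 higher (2.85-fold, adjusted p = 8.19e-13), and the helicase RTEL1 1.03 ± 0.17 higher. NUCKS1, a chromatin protein with a role in recombination, was at -0.90 ± 0.07.

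For the mean of the kinase lines 10 partners were higher and 18 lower than wild type (34.6% and 34.3% of all genes). BABAM2, a subunit of the BRCA1-A complex, was at -1.88 ± 0.10 (3.67-fold lower, adjusted p = 7.94e-17) and SLX1A, the nuclease that works with SLX4, at -1.72 ± 0.08 (3.29-fold lower, adjusted p = 6.71e-18). SLX1A has a near-identical copy, SLX1B, from which its signal may not be separable. FIGNL1 was 1.41 ± 0.09 higher and ZSWIM7, a subunit of the Shu complex, 1.02 ± 0.13 higher. Against shControl the kinase lines had 19 partners higher and 9 lower (37.1% and 34.5%), with BABAM2 at -1.52, SLX1A at -1.42 and FIGNL1 at 0.94.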

How the data were processed

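Biotinylated cRNA was hybridised to Illumina expression BeadChips, 1 array per sample, and the samples were grouped by their labels. The deposited signals consist of an intensity for each probe and array, with a detection p-value beside it, per the file headers. The authors' second table holds log2 values, which match quantile-normalized signals to within 0.0013. The software behind them, the slides and the scan dates are not given in the sources used here.

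Intensities were corrected and normalized with neqc (offset 16, controls inferred from detection p-values) in limma 3.58.1 under R 4.3.3, with the data.table package, version 1.17.8. Probes needed a detection p under 0.01 on all 3 arrays of 1 group, and a gene was read through its brightest probe on average. Of 47231 probes, 30113 named 1 gene, 8 several and 17110 none. The fit estimated a mean for each of the 12 groups from the 36 arrays for 11048 genes. Benjamini-Hochberg adjustment ran over these genes in each comparison, and an adjusted p under 0.05 counted as called. Differences are on the log2 scale with the offset, which understates changes of dim probes. A group without a detected array has only a bound. Standard errors come from the spread shared by all groups, and 3 arrays per group limit the precision. On data simulated for shControl against wild type over 11048 genes, 57% of 100 genes changed by 0.5 on the log2 scale were recovered and 96% of 100 changed by 1. No other genes were changed there, whereas 16.0% of all genes were called lower and 14.5% higher in the data. Recovery in the data may therefore differ. Figures used Python 3.11.15, matplotlib 3.10.9 and pandas 2.3.3.

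The members, the lists and the comparisons were chosen with earlier results of these data known. Any member could be named, with values for those that changed most in each role or that differed between the references. Up to 3 called partners in each direction could be named as well. Residuals of arrays with the same replicate number did not run together on average (mean correlation -0.000629, from -0.246 to 0.405, against 0.000385 for other numbers). The main fit used no pairing, and this mean cannot show whether some of the groups shared a batch. Alternatives tried were the deposited values, no background correction, no filter on dim probes, detection on all 36 arrays, the mean over probes, only the compared groups, a replicate block and leaving out each array.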

Additional observations from a re-analysis of the deposited data

Results flagged for a closer look

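For 2 members the lines made with the 2 hairpins of a target differed by at least 1 on the log2 scale, with an adjusted p under 0.05 for the difference itself (limma). For PSMC3IP, shATM-1 exceeded shATM-3 by 1.05, shATR-3 exceeded shATR-4 by 1.06, and shCHK2-1 differed from shCHK2-2 by -1.21. For XRCC2, shCHK1-3 exceeded shCHK1-4 by 1.06. In each of these pairs the 3 arrays of one line did not overlap the 3 of the other.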

How the results depend on the processing

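Counts of called members kept within 1.5 times of the reported value with few exceptions. With only the compared groups fitted, the CHK1 hairpins gave 2 members in place of 9 and the 53BP1 hairpins 0 in place of 1. Called in all 4 hairpin pairs, a count chosen after seeing the data, were 2 in place of 6. With no filter on dim probes the 53BP1 hairpins gave 2. Leaving out 1 array gave 15 to 18 members for shControl against wild type (reported 19), 9 to 12 and 16 to 20 for both 53BP1 lines against wild type and shControl (12 and 21), 2 to 5 and 11 to 12 for all 8 kinase lines (4 and 11), where the 2 came without shATM-3 replicate 2, and 4 to 6 for all 4 hairpin pairs (6). Between hairpins it gave 18 to 20 for ATM (19), 11 to 16 for ATR (14), 5 to 8 for CHK1 (9), with 5 without shCHK1-3 replicate 3 or shCHK1-4 replicate 1, 9 to 13 for CHK2 (11) and 0 to 1 for 53BP1 (1). Against the other 6 kinase lines it gave 5 to 10 for ATM (9), with 5 without shATM-1 replicate 3 or shATM-3 replicate 2, 0 for ATR, 1 to 2 for CHK1 (2), with 1 without shCHK1-3 replicate 2 or shCHK1-4 replicate 1 or 3, and 1 to 4 for CHK2 (4), with 1 without shCHK2-1 replicate 2 and 2 without shCHK2-1 replicate 3 or shCHK2-2 replicate 2. Direction reversed for RAD51B in shATR-3 against wild type with no filter (-0.0187, adjusted p = 0.956), where another probe stood for the gene, and for RPA1 between the CHK2 hairpins with the mean over probes (0.00448, adjusted p = 0.975).

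Called differences were smaller on the deposited scale, which has no background correction, at a median of 76.5% of the reported size, and 172 of 518 were at least 1.5 times smaller. With the replicate block, 1047 of 1054 member differences kept their side of the threshold and the count for shControl against wild type was 19. For the other counts the block gave 12 and 21 for the 53BP1 lines, 4 and 11 for the kinase lines, 19, 14, 9, 11 and 1 between hairpins, and 9, 0, 2 and 3 for ATM, ATR, CHK1 and CHK2 against the other kinase lines. Members near background (RAD51B, GEN1, FANCF, FANCC and FANCB in shControl) are limited by signal over background.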
